A study of Mus musculus with 2 samples.

Results

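Keratinocytes carrying transcripts of Krt75, a type II keratin of the hair follicle, were examined in single-cell RNA profiles of mouse skin. Members were chosen by measured values of the same cells: a barcode needed at least 500 genes, at least 1000 unique molecular identifiers (UMIs, each standing for 1 captured RNA molecule), at most 10% mitochondrial UMIs and at least 2 UMIs of Krt75. The collagen genes Col1a1, Col1a2 and Col3a1 had to hold under 0.3% of its UMIs, and the complement genes C1qa, C1qb and C1qc at most 2 UMIs together, limits that keep out fibroblasts and macrophages rich in these transcripts. This gave 306 members of 24312 retained cells, 285 of 18380 in the sitagliptin-labelled and 21 of 5932 in the PBS-labelled library.

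The skin came from C57Bl6 mice, male and female, 8 weeks old. Sitagliptin, an inhibitor of dipeptidyl peptidase 4 (DPP4), was injected into the dermis at 100 ng in 100 µl of phosphate-buffered saline (PBS), and the control skin received PBS alone. A time of 48 h stands beside the processing of the skin, without naming the event it runs from. The sources used here do not say how many animals stand behind a library or whether they were pooled. Each treatment has 1 library, so no test was possible, and all intervals are 95% intervals for counting error alone. The deposited names carry, for either treatment, the initial of the other, so the libraries are called sitagliptin-labelled and PBS-labelled. If the labels were exchanged, every direction between libraries would turn.

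Krt75 marks the companion layer, the cell sheet between the inner and the outer root sheath of a growing follicle, and the inner layer of the bulge in a resting one. The inner bulge consists of differentiated cells that stay behind after a growth phase, surround the old club hair and lie against the outer bulge, where the CD34-positive stem cells reside. In mouse skin these inner cells are known as a source of FGF18 and BMP proteins, signals that keep the stem cells quiet, and the series title names DPP4 inhibition and the activation of hair follicles as its subject. Krt75 (ENSMUSG00000022986) lies on the minus strand of chromosome 15, at 101563345 to 101573904 of mm10 in GENCODE vM21, within the type II keratin cluster. Krt6a, the keratin that accompanies it in both layers, is in the same cluster at 101689910 to 101694307. Fgf18, which encodes an FGF ligand, is on chromosome 11 at 33117430 to 33147400, also on the minus strand.

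The 250 bases before the start of Krt75 and Fgf18 are shown because Fgf18 was higher in members than in other cells, as given below. Fgf18 was not detected in every member. The stretches are from RefSeq on GRCm38.p6, 5′ to 3′ on the strand of the gene, with CG dinucleotides in capitals. The Krt75 stretch is chr15:101573905-101574154 and the Fgf18 stretch chr11:33147401-33147650.
Krt75: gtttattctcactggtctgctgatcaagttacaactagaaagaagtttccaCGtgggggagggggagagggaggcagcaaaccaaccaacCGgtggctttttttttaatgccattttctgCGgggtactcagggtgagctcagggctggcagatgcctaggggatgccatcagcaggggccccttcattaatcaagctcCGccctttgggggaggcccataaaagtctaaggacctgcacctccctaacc
Fgf18: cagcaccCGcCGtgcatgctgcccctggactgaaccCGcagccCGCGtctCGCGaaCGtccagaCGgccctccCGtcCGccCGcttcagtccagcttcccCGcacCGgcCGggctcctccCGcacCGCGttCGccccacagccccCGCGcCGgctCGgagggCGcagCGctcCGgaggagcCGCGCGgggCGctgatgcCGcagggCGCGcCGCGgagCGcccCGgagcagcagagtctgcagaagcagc
The sequences differ in composition. Krt75 has 4 CG dinucleotides and 53.6% G and C, and Fgf18 has 37 and 77.2%, where the medians over 32851 RefSeq promoters were 6 and 52.4%. None of 4 short motifs searched on both strands was found in either stretch, so no motifs overlapped. These were TATAAA (the TATA box, in 12.4% of all promoters), TAATTA (a homeodomain core, 4.84%), CTTTGA (a TCF/LEF core, 13.8%) and ACAATG (a SOX core, 10.7%). Only these exact letters were searched, so variants of the motifs can be present.

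The libraries differed in depth. Retained cells had a median of 2197 UMIs in the sitagliptin-labelled library (22085 barcodes, 95047000 UMIs in all) and of 6902.5 UMIs in the PBS-labelled one (10456 barcodes, 70729930 UMIs in all). Members were deeper than the rest, with medians of 7930 UMIs and 2869 genes in the sitagliptin-labelled and 14392 UMIs and 3871 genes in the PBS-labelled library. Their lowest totals were 1156 and 2896 UMIs, and their median mitochondrial shares 6.07% and 7.28%, in the same order of libraries. Of 75 barcodes found in both libraries, 1 was a sitagliptin-labelled member and 0 were PBS-labelled members. No doublets were removed.

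Krt75 itself chose the cells, so its level is a description. Sitagliptin-labelled members had 2 to 58 Krt75 UMIs with a median of 4, and PBS-labelled members 2 to 40 with a median of 9. Scaled to 10000 UMIs of the cell, the lowest, median and highest values were 0.451, 9.38 and 74.4 in the sitagliptin-labelled library, against 1.92, 6.47 and 41.4 in the PBS-labelled one. The PBS-labelled range lay within the sitagliptin-labelled one, which reached further at both ends. Just outside the limit, 809 sitagliptin-labelled and 49 PBS-labelled cells had 1 Krt75 UMI, and just inside it 90 and 1 cells had 2. In the sitagliptin-labelled library the Timp3 level was 104 counts per 1000000 UMIs (CPM) in cells with 1 Krt75 UMI, 252 CPM in those with 2, 498 CPM in those with 3 to 9 and 1989 CPM in those with 10 or more. Krt6a stood at 228, 426, 701 and 1933 CPM in these classes, whose median depths were 2212, 2935, 7683.5 and 13128 UMIs. In the PBS-labelled library Timp3 had 20.4, 0, 281 and 1853 CPM and Krt6a 362, 3518, 1185 and 1598 CPM, with 1 cell in the class of 2 UMIs, so the order was not the same there.

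**Figure D1:**
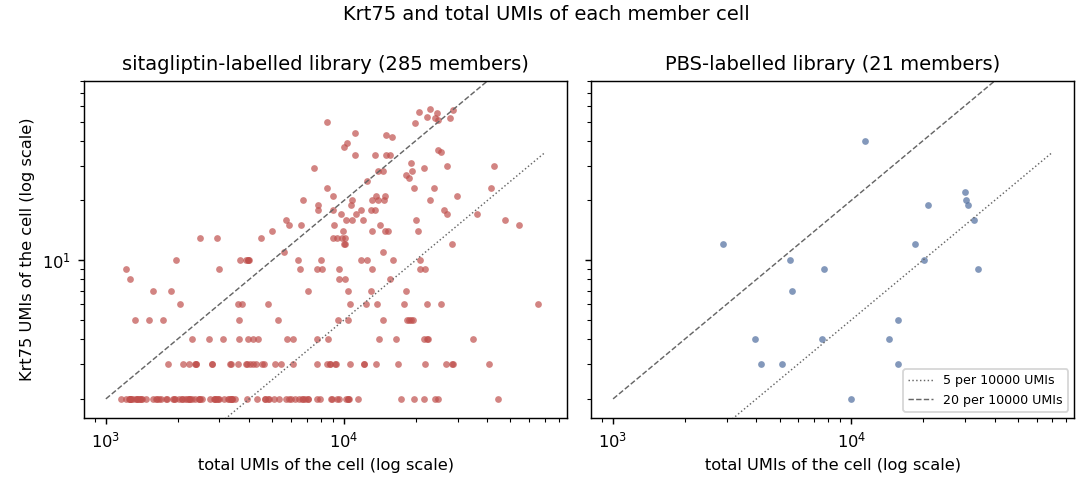
Krt75 UMIs against total UMIs of every member cell, both on log scales, with the sitagliptin-labelled library on the left and the PBS-labelled library on the right; the lines mark 5 and 20 Krt75 UMIs per 10000. The 285 sitagliptin-labelled members reach down to 1156 total UMIs, the 21 PBS-labelled ones to 2896.

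Members were a larger share of the sitagliptin-labelled library. They made up 1.55% of its retained cells (1.38 to 1.74, exact Clopper-Pearson interval), against 0.354% (0.219 to 0.541) of those of the PBS-labelled library, a ratio of 4.38 (2.81 to 7.19). With every cell thinned to 1000 UMIs, cells with at least 1 Krt75 UMI were 2.95% in the sitagliptin-labelled and 0.455% in the PBS-labelled library, and those with at least 2 were 0.495% and 0.0843%. The PBS-labelled library held more cells of other tissues: the collagen and C1q limits left out 73 sitagliptin-labelled and 1362 PBS-labelled cells. Counted only among cells within those limits, the shares were 1.56% and 0.460%, a ratio of 3.39. With at most 5% mitochondrial UMIs 89 of 6014 sitagliptin-labelled cells and 1 of 1848 PBS-labelled cells remained members, a ratio of 27.4 (4.78 to 1092) that rests on that 1 cell.

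Free RNA can place Krt75 UMIs in cells that do not make it. At least 2 Krt75 UMIs were found in 0 of 26 sitagliptin-labelled cells left out for C1q transcripts (exact interval up to 13.2%, median depth 4187.5 UMIs) and in 3 of 916 such PBS-labelled cells, or 0.328% (0.0676 to 0.954, median depth 4944.5 UMIs). By count alone the PBS-labelled share of 0.354% was therefore not above this background. Fgf18, Arg1, Bmp2 and Timp3, which the rule did not use, were chosen for a further count after values of these members were seen. At least 2 UMIs of them together were present in 215 of 285 sitagliptin-labelled members (75.4%) and 20 of 21 PBS-labelled members (95.2%). Of the other cells within the limits, 7.24% and 16.9% held as many. Members were deeper, and no share at equal depth was computed for the genes together. Thinned as above, each gene alone was detected in a larger share of members than of other cells in both libraries. Fgf18 had the lowest member shares, 8.42% and 28.6%, against 1.18% and 0.66%. Requiring 2 UMIs of the genes together gave shares of 1.17% and 0.337% of retained cells, a ratio of 3.47 (2.19 to 5.79). Given how the genes were chosen, this is no independent check.

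**Figure D2:**
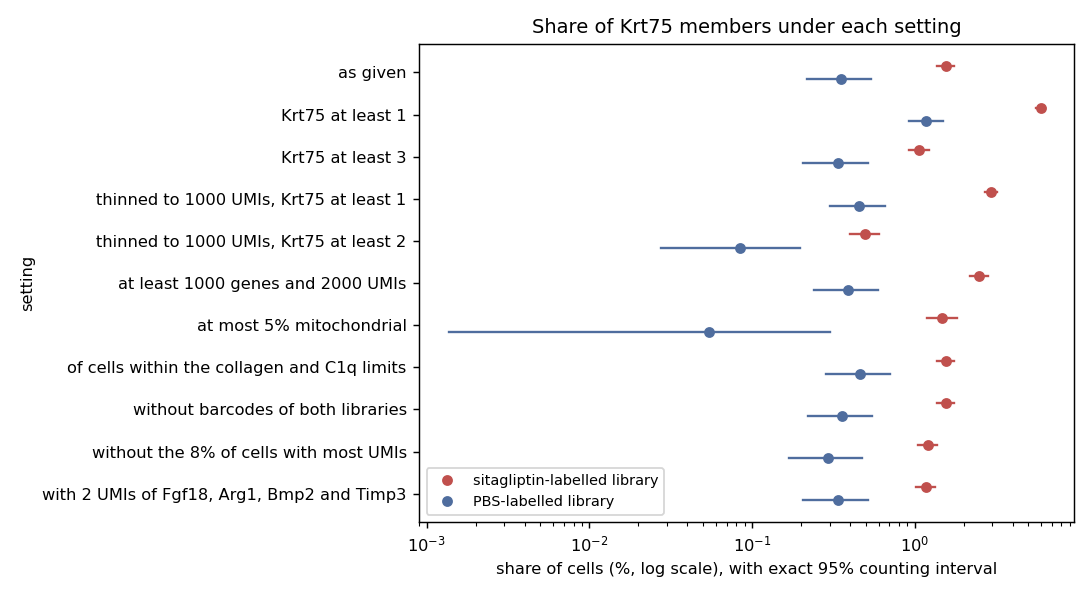
Share of retained cells that met the Krt75 rule, in percent on a log scale with exact 95% counting intervals, under the rule as given and 10 other settings; sitagliptin-labelled values stand above PBS-labelled ones. The sitagliptin-labelled share is higher in each, and the PBS-labelled value with at most 5% mitochondrial UMIs rests on 1 cell.

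The label was set beside Krt6a, Arg1 and Bmp2, which the rule did not use. These genes were chosen with earlier results of these data known. Krt6a was detected in 254 of 285 sitagliptin-labelled members (89.1%) and 19 of 21 PBS-labelled members (90.5%). Arg1, which encodes the arginase that turns arginine into ornithine, was detected in 184 and 14 members, and Bmp2, a secreted BMP ligand, in 194 and 16. All 3 were present in 160 sitagliptin-labelled members (56.1%, 50.2 to 62.0) and 13 PBS-labelled members (61.9%, 38.4 to 81.9), against 0.377% and 0.154% of the other cells within the same limits. None of the 3 was found in 25 and 2 members (8.77% and 9.52%), against 66.0% and 59.5% of the other cells. At 1000 UMIs per cell Arg1 remained detected in 22.1% of sitagliptin-labelled and 38.1% of PBS-labelled members, against 1.47% and 0.264% of other cells, and Bmp2 in 28.4% and 33.3%, against 2.29% and 1.93%. These 3 genes were thus found together in most but not all members. Given how they were chosen, this is no independent check of the label. The 78 sitagliptin-labelled members under 5 Krt75 UMIs per 10000 had the suprabasal keratin Krt10 at 11281 CPM, near the 11030 CPM of other cells. Their Arg1 was at 118 CPM, against 13.7 CPM. Krt6a, Arg1 and Bmp2 do not separate the companion layer from the inner bulge.

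Keratins of the inner root sheath and genes of other cell types were mostly low. Of the inner root sheath keratins, Krt71 was seen with 8 and 1 members positive, Krt27 in 0 and 1, and Krt72, Krt73, Krt25, Krt26 and Krt28 had 0 UMIs in all members. Other genes of the same list were present: Gata3, a transcription factor of the inner root sheath and of epidermis, in 173 and 11 members, Trps1, a zinc finger factor, in 100 and 7, and the trichohyalin gene Tchh in 33 and 7. Gata3 was at 330 CPM in sitagliptin-labelled members against 496 CPM in other cells and at 235 CPM in PBS-labelled members against 401 CPM. Of 6 endothelial genes, Pecam1 and Cdh5 had 2 UMIs each in sitagliptin-labelled members, and the others had 0 UMIs, as had all 6 in PBS-labelled members. The muscle genes Acta1 and Ckm had 0 UMIs in sitagliptin-labelled and 2 and 3 UMIs in PBS-labelled members. At least 10 UMIs of fibroblast and macrophage genes were found in 0 sitagliptin-labelled members and 1 PBS-labelled member. That cell shows in the fibroblast gene Dcn, with 1 UMI in sitagliptin-labelled and 35 in PBS-labelled members, 34 of them in a single cell. Apoe, of the macrophage list, cannot be among the genes of that 10-UMI count, since members held it at 5476 and 3875 CPM. Other cells had 6339 and 5314 CPM of Apoe. Sparc, of the fibroblast list, was higher in members, at 245 and 315 CPM against 91.8 and 76.0 CPM. So was Mitf, of the melanocyte list, at 66.5 and 76.4 CPM against 19.4 and 14.5 CPM. Suprabasal keratins were common: Krt1 and Krt10 together exceeded 1% of UMIs in 81 of 285 (28.4%) sitagliptin-labelled and 5 of 21 (23.8%) PBS-labelled members, against 53.6% and 28.3% of other cells. Whether this is free RNA, doublets or the cells' own RNA was not tested.

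Against all other cells within the same limits, the members shared a compact set of high genes. Of 2753 genes with at least 50 CPM in the members of both libraries, 171 (6.21%) were at least 2-fold higher in members in both, and 33 at least 5-fold. Since Krt75 UMIs chose the cells, these ratios are descriptions. By the smaller of the ratios in the libraries, the leading 15 were Cldn3, Wfdc3, Arg1, Serpinb11, Timp3, Fgf18, Adcy1, Bmp2, Cyp26b1, Gpx2, Pdzrn3, Gpc6, Ltbp2, Krt24 and Dclk1.

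These 15 are given by what their products are known to do, a grouping made after their values were seen. Among those of secreted proteins and inhibitors, Timp3, an inhibitor of matrix metalloproteases held in the extracellular matrix, was at 1214 CPM in sitagliptin-labelled members against 45.5 CPM in the other cells, and at 1250 CPM in PBS-labelled members against 63.5 CPM. It was 26.7-fold (25.5 to 27.9) and 19.7-fold (17.7 to 21.8) higher in members. Wfdc3, a small secreted protein with protease inhibitor domains, reached 576 CPM against 21.0 CPM in the sitagliptin-labelled and 544 CPM against 4.97 CPM in the PBS-labelled library. The serpin gene Serpinb11 was at 184 CPM against 8.41 CPM and at 193 CPM against 3.64 CPM, in the same order. Ltbp2, a protein of elastic microfibrils, was 7.92- and 33.1-fold higher, and Gpc6, a heparan sulfate proteoglycan of the cell surface, 8.88- and 14.2-fold.

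Of the signalling ligands, Fgf18, an FGF, was at 110 CPM in sitagliptin-labelled members against 6.53 CPM in other cells, and at 141 CPM in PBS-labelled members against 3.17 CPM, or 16.8-fold (14.6 to 19.3) and 44.3-fold (31.1 to 62.1) higher. Bmp2 was at 356 CPM against 19.0 CPM and at 223 CPM against 18.2 CPM, or 18.8-fold (17.3 to 20.3) and 12.3-fold (9.53 to 15.6) higher. Bmp6, another BMP ligand, was at 15 CPM against 1.03 CPM and at 21.4 CPM against 0.507 CPM, with 45 UMIs in sitagliptin-labelled and 7 in PBS-labelled members. Both ligand families were thus represented in the members of each library. Fgf5, the ligand known to end follicle growth, had 11 and 1 UMIs, each in a different cell, or 3.66 CPM in sitagliptin-labelled members against 0.0489 CPM in other cells and 3.06 CPM in PBS-labelled members against 0.0634 CPM.

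Among enzymes and other proteins, Arg1 was at 356 CPM in sitagliptin-labelled members against 13.7 CPM in other cells, and at 287 CPM in PBS-labelled members against 3.85 CPM. The ratios were 25.9 (23.8 to 28.2) and 74.7 (57.6 to 96.3). Cyp26b1, which degrades retinoic acid, was 12.2- and 29.3-fold higher, and Adcy1, an adenylyl cyclase that makes cyclic AMP, 15- and 45.2-fold. Cldn3, a claudin of tight junctions, was 27.5- and 72.3-fold higher, at 51.9 and 67.2 CPM in members. The glutathione peroxidase gene Gpx2 was 11.1- and 16.9-fold higher, though 33.8% of the 31-base words at its 3′ ends occur in other genes. Krt24, a type I keratin, reached 417 CPM in sitagliptin-labelled members against 52.7 CPM in other cells and 400.3 CPM in PBS-labelled members against 21.8 CPM. Pdzrn3, a ubiquitin ligase, was 8.97- and 9.29-fold and the kinase gene Dclk1 7.77- and 11.1-fold higher.

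Fewer genes were low in members. Of 2854 genes with at least 50 CPM in the other cells of both libraries, 28 (0.981%) were at least 2-fold lower in members of both. Flg, the filaggrin gene of cornifying epidermis, was lower by 3.68- and 10.7-fold, and Sprr1a, a cornified envelope protein, by 2.48- and 2.91-fold. Defb6, a beta-defensin, was lower by 2.51- and 3.17-fold. Proliferation genes were in this group: Top2a, the topoisomerase of dividing cells, was at 131 CPM in sitagliptin-labelled members against 280 CPM in other cells and at 64.2 CPM in PBS-labelled members against 277 CPM, and Mki67 was at 104 CPM against 221 CPM and at 67.2 CPM against 266 CPM. Even so, 118 of 285 (41.4%) sitagliptin-labelled and 9 of 21 (42.9%) PBS-labelled members held a UMI of either gene, against 51.1% and 45.7% of the shallower other cells. No cycling is read from these shares.

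Gene lists give the same comparison by role. Of the companion or inner bulge list 6 of 7 genes measured at 50 CPM or more were at least 2-fold higher in members in both libraries, and of the outer bulge and stem cell list 10 of 11. For BMP genes it was 7 of 12, for FGF genes 2 of 4 and for Wnt genes 4 of 7. None of 4 upper follicle genes, 8 basal epidermis genes, 9 suprabasal genes or 8 cell cycle genes was. These counts stand beside 6.21% of all genes.

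The members carried transcripts of the outer bulge as well as of the inner. Cd34, the surface marker of mouse bulge stem cells, was detected in 176 of 285 sitagliptin-labelled members (61.8%) and 14 of 21 PBS-labelled members (66.7%). Lgr5, an R-spondin receptor of the lower bulge and hair germ, was detected in 128 (44.9%) and 12 (57.1%). Cells with both made up 38.6% (32.9 to 44.5) and 52.4% (29.8 to 74.3) of members, against 2.16% and 2.40% of other cells. At 1000 UMIs per cell Cd34 was detected in 21.8% of sitagliptin-labelled and 23.8% of PBS-labelled members, against 5.90% and 2.62% of other cells, and Lgr5 in 10.2% and 9.52%, against 2.66% and 1.63%. Krt15, a type I keratin of bulge and basal cells, was at 9983 CPM in sitagliptin-labelled members against 2492 CPM in other cells and at 11120 CPM in PBS-labelled members against 2096 CPM. Sox9, a transcription factor of bulge cells, was 4.97- and 7.55-fold higher, and Lhx2, another, 4.56- and 10.4-fold. Itga6, the integrin used to sort basal cells, was 0.758 and 0.603 times the level of other cells. Detection of Cd34 and Krt75 in the same barcode does not by itself place both in 1 cell, since doublets of inner and outer bulge cells were not removed.

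Keratinocytes without a Krt75 UMI, gated on Cd34, on Lgr5 or on at least 10 UMIs of the upper follicle keratin Krt79, served as the nearest groups. They held 1274 and 123, 876 and 206, and 1218 and 674 cells in the sitagliptin-labelled and the PBS-labelled library. Fgf18 was at 110 CPM in sitagliptin-labelled members, 11.3 CPM in Cd34 cells, 11.5 CPM in Lgr5 cells and 1.22 CPM in Krt79-high cells. In the PBS-labelled library the same groups had 141, 9.62, 13.2 and 0.937 CPM. Fgf18 was thus lowest in the upper follicle group of both libraries and highest in members.

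Bmp2 had 356, 19.3, 19.3 and 7.94 CPM across members, Cd34, Lgr5 and Krt79-high cells of the sitagliptin-labelled library and 223, 15.2, 29.9 and 5.73 CPM in the PBS-labelled one. Timp3 had 1214, 57.3, 49.5 and 63.7 CPM, and 1250, 95.4, 168 and 86.3 CPM. Sfrp1, a secreted Wnt inhibitor, differed less between the bulge groups. It had 537, 349, 389 and 24.2 CPM in the sitagliptin-labelled and 617, 291, 396 and 14.9 CPM in the PBS-labelled library. Dkk3, of the dickkopf family, had 118, 76.8, 93.6 and 6.37 CPM, and 141, 52.9, 85.3 and 5.73 CPM. The cationic amino acid transporter gene Slc7a2 was highest in Lgr5 cells, with 4.32, 3.78, 36.5 and 0.959 CPM in the same groups of the sitagliptin-labelled and 6.11, 8.02, 94.7 and 1.46 CPM in those of the PBS-labelled library. No test of these differences was possible with 1 library per treatment, and both libraries gave each of these orders between members and Lgr5 cells.

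**Figure D3:**
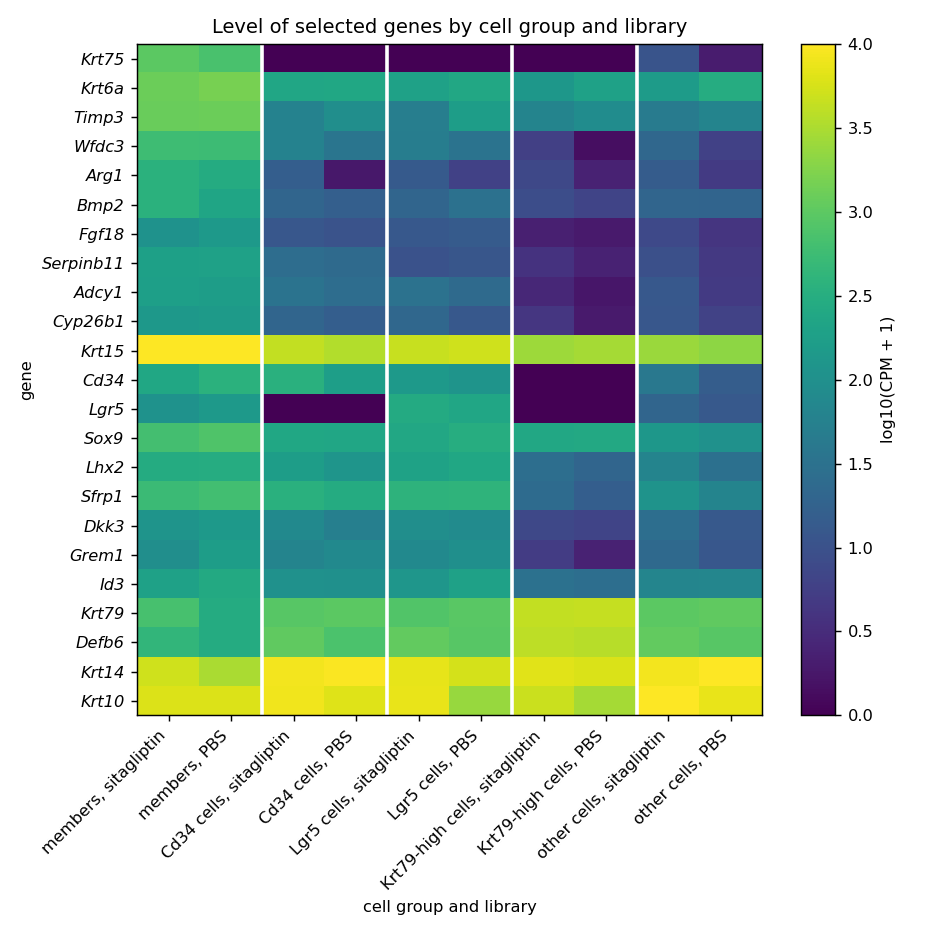
Levels of 23 genes as log10(CPM + 1) in members, in the Cd34, Lgr5 and Krt79-high cells and in all other cells within the same limits, with the sitagliptin-labelled column left of the PBS-labelled one in each group. Krt75 is 0 in the Cd34, Lgr5 and Krt79-high groups by their gates, as are Lgr5 in Cd34 cells and Cd34 and Lgr5 in Krt79-high cells; Timp3, Wfdc3, Arg1, Bmp2 and Fgf18 are brightest in members.

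Among BMP pathway genes the members combined ligands, targets and antagonists. Id1 and Id3, targets of BMP signals that block differentiation factors, were 3.70- and 2.92-fold higher than in other cells in the sitagliptin-labelled and 3.51- and 4.0-fold in the PBS-labelled library. Id2 was at 137 CPM against 33.8 CPM and at 107 CPM against 29.3 CPM. Grem1, a secreted BMP antagonist, was at 94.4 CPM in sitagliptin-labelled members against 22.1 CPM in other cells and at 168 CPM in PBS-labelled members against 11 CPM. Lgr5 cells also stood above the other cells in these genes. They had 62.8 and 143 CPM of Id1, against 147 and 165 CPM in members. For Id3 they had 124 and 193 CPM, against 192 and 269 CPM, and for Grem1 78.0 and 96.6 CPM. The receptor gene Bmpr1a was close to its level elsewhere, at 1.19 and 1.24 times other cells. Bmp4, another BMP ligand, had 26 UMIs in sitagliptin-labelled and 0 in PBS-labelled members. It was lower than in other cells, at 8.64 CPM against 19.5 CPM and at 0 CPM against 23.5 CPM.

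For the FGF pathway, the receptor gene Fgfr1 was 3.18- and 4.61-fold higher in members than in other cells. It was not particular to members: Lgr5 cells had 159 and 233 CPM, against 165 and 223 CPM in members, and Cd34 cells 113 and 116 CPM. Fgfr2, the main epithelial receptor, was at 0.967 and 0.862 times other cells. The feedback inhibitor Spry1 was at 25.3 CPM against 20.8 CPM and at 9.17 CPM against 16.5 CPM, the last from 3 UMIs in PBS-labelled members. For Wnt, the receptor gene Fzd1 was 4.75- and 7.36-fold higher and Tcf7l1, a transcriptional repressor of bulge cells, 5.28- and 5.51-fold. Lgr5 cells had 40.8 and 48.1 CPM of Fzd1, against 117 and 131 CPM in members. Of Tcf7l1 they had 16.3 and 26.5 CPM, against 29.9 and 27.5 CPM. Wnt4 and Wnt7b, ligands of the epidermis, were lower in members, at 0.664 and 0.582 times and 0.716 and 0.754 times other cells. Axin2, a common readout of Wnt signals, was at 32.6 CPM against 46.2 CPM and 18.3 CPM against 40.3 CPM.

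Of the arginine and polyamine list, 1 of 5 genes at 50 CPM or more was 2-fold higher in both libraries, Arg1 itself. Odc1, which makes putrescine from ornithine, was at 90.4 CPM in sitagliptin-labelled members against 76.2 CPM in other cells and at 131 CPM in PBS-labelled members against 104 CPM. Oat, which turns ornithine towards proline, was at 55.8 CPM against 82.3 CPM and at 48.9 CPM against 89.9 CPM. Arg2, the mitochondrial arginase, had 6 and 1 UMIs.

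The members were not uniform. Split by Krt75 per 10000 UMIs into under 5, 5 to under 20, and 20 and over, they formed bins of 78, 160 and 47 cells in the sitagliptin-labelled and 7, 12 and 2 cells in the PBS-labelled library. In the sitagliptin-labelled library Timp3 stood at 296, 1509 and 3034 CPM along the bins, Fgf18 at 36.2, 119 and 299 CPM and Bmp2 at 130, 411 and 858 CPM. Arg1, Krt6a and Krt15 showed the same order, with 118, 421 and 865 CPM, 470, 1621 and 2647 CPM, and 4911, 12284 and 18007 CPM. These 6 genes thus stood higher in each bin of that library, while of the same companion list Dkk3, with 81.0, 147 and 142 CPM, and Krt17, with 1467, 1424 and 1936 CPM, did not.

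Keratins of the interfollicular and upper follicle epithelium ran opposite. Krt10, a keratin of suprabasal cells, was at 11281, 2993 and 583 CPM along the bins of the sitagliptin-labelled library, and Krt79 at 1136, 454 and 32.7 CPM. Krt14, the basal keratin, was at 5950, 5108 and 2353 CPM. Defb6 was at 578, 410 and 67.6 CPM. In the PBS-labelled library Krt10 had 10815, 2763 and 908 CPM and Timp3 842, 1514 and 2165 CPM, while Fgf18, with 112, 164 and 140 CPM, and Krt15, with 8927, 12813 and 12779 CPM, were not ordered; the top bin there holds 2 cells. The bin under 5 was the deepest, with median totals of 12088, 4214 and 7481 UMIs in the sitagliptin-labelled library, since a cell of many UMIs can reach 2 Krt75 UMIs at a low level. Free RNA and doublets in that bin were not tested.

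**Figure D4:**
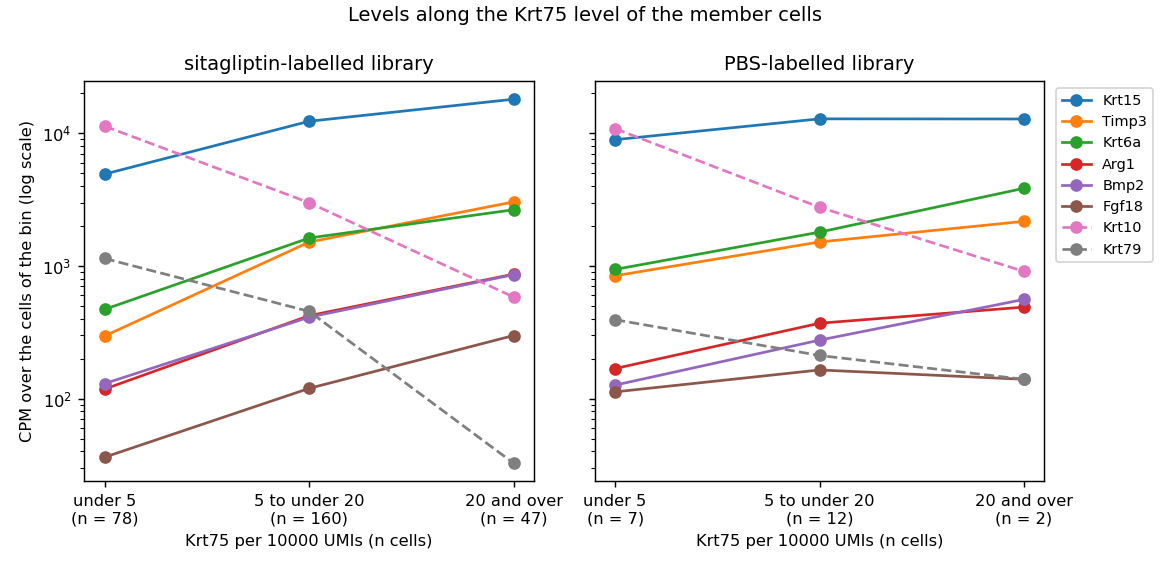
CPM of 8 genes on a log scale over the members of each Krt75 bin, with the sitagliptin-labelled library on the left and the PBS-labelled library on the right and the number of cells under each bin. In the sitagliptin-labelled library Krt15, Timp3, Krt6a, Arg1, Bmp2 and Fgf18 (solid lines) are higher in each further bin, and Krt10 and Krt79 (dashed) lower.

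Between the libraries most genes of the members were close. Genes entered with a level of 50 CPM or more in 1 of the libraries and 20 UMIs or more in their sum. Of the 3488 that did, 68 (1.95%) passed 2-fold upwards in the sitagliptin-labelled members and 40 (1.15%) downwards, 108 (3.1%) in all, and 85.4% lay within 1.5-fold. Of the 40 lower genes, 15 had at least 50% of their PBS-labelled UMIs in a single cell. The PBS-labelled sum comes from 21 cells and 327255 UMIs, against 285 cells and 3008822 UMIs, and this bounds every ratio below. The number past 2-fold was 103 to 2398 over the settings tried. Without the 1 member with most UMIs of each gene it was 153, of which 148 were higher and 5 lower; this removes a larger part of the smaller group by construction.

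The genes that mark the cells differed little. Timp3 was at 1214 CPM in sitagliptin-labelled and 1250 CPM in PBS-labelled members, a ratio of 0.971 (0.877 to 1.08). Krt6a was at 1281 and 1513 CPM (0.847, 0.771 to 0.932), Arg1 at 356 and 287 CPM (1.24, 1.0 to 1.55) and Fgf18 at 110 and 141 CPM (0.780, 0.572 to 1.09). Bmp2 was higher, at 356 and 223 CPM, a ratio of 1.59 (1.26 to 2.05), where other cells gave 19.0 and 18.2 CPM. The companion or inner bulge list had a median log2 ratio of -0.24 over its 9 genes with at least 20 UMIs, against 0.055 over all 9699 such genes. Of those 9 genes, 1 was at least 1.5-fold higher (Bmp2) and 1 lower (Krt6b), where 19.3% of all genes were higher and 11.5% lower. Krt6b, a close relative of Krt6a, had 69 UMIs in 8 sitagliptin-labelled cells and 15 UMIs in 3 PBS-labelled cells.

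The outer bulge list had a median of -0.18 over 12 genes, with 0 at least 1.5-fold higher and 1 lower, Nfatc1, a factor of stem cell quiescence, at 99.7 and 153 CPM. Cd34 was at 241 and 358 CPM, a ratio of 0.675 (0.555 to 0.828). The BMP list had a median of -0.17 over 18 genes, with 2 at least 1.5-fold higher and 2 lower. Grem1 was at 94.4 and 168 CPM (0.562, 0.420 to 0.764), and Id3 at 192 and 269 CPM (0.714, 0.570 to 0.905). The FGF and Wnt lists had medians of 0.076 and -0.0087, with 2 of 10 and 3 of 17 genes higher and 0 and 2 lower. Fzd6, a Wnt receptor gene, was at 57.2 and 24.5 CPM, a ratio of 2.34 (1.16 to 5.5), and Fzd10, another, at 37.9 and 9.17 CPM from 114 and 3 UMIs, a ratio of 4.13 (1.38 to 20.3). Wif1, a Wnt inhibitor gene, was lower at 7.64 and 39.7 CPM, with all 13 PBS-labelled UMIs in 1 cell. The arginine list had a median of -0.10, with 3 of 15 genes higher and 1 lower. All these counts stand beside 19.3% of all genes higher and 11.5% lower. Counting only intervals that leave out 1, the outer bulge, BMP, FGF, Wnt and arginine lists had 0, 1, 0, 2 and 1 higher genes. By the same count they had 1, 1, 0, 1 and 0 lower genes.

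Genes that glucocorticoids induce in many tissues were the list with the most members higher beyond their counting intervals. Of 16 with at least 20 UMIs, 9 were at least 1.5-fold higher in sitagliptin-labelled members, each with an interval that leaves out 1, and 1 was lower. Of all genes 19.3% were that much higher, and 2.89% with such an interval. The list median was 0.68, against 0.23 for the same genes in other cells and 0.055 over all genes in members. Tsc22d3, whose product is known as GILZ and restrains inflammatory transcription, was at 283 and 79.5 CPM, a ratio of 3.56 (2.41 to 5.48); 215 of 285 sitagliptin-labelled and 12 of 21 PBS-labelled members held it. Fkbp5, a partner of Hsp90 in receptor complexes, was at 159 and 55.0 CPM (2.88, 1.80 to 4.91), and Ddit4, an inhibitor of mTORC1, at 182 and 55.0 CPM (3.31, 2.07 to 5.62). Txnip, an inhibitor of thioredoxin, was at 1011 and 461 CPM (2.19, 1.86 to 2.60), and the kinase gene Sgk1 at 405 and 196 CPM (2.07, 1.61 to 2.71).

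Errfi1, Mt1, Mt2 and Zbtb16 were the other 4 genes, at ratios of 2.07, 1.75, 1.67 and 1.55, and Angptl4 was the lower one, with 27 and 7 UMIs. Per1, a clock gene on the list, was at 47.9 and 64.2 CPM (0.746, 0.470 to 1.24). Other cells had ratios above 1 for all 9 genes as well. They had 151 and 70.6 CPM of Tsc22d3, 63.5 and 29.5 CPM of Fkbp5, 361 and 199 CPM of Txnip, 98.2 and 63.6 CPM of Ddit4, and 155 and 80.9 CPM of Zbtb16, whose ratio of 1.92 there was above that in members. For Mt1 they had 952 and 894 CPM, where members had 1335 and 764 CPM. The ratio of Tsc22d3 in members was 1.82 to 4.06 over the settings tried, and the list median 0.53 to 1.11. Along the Krt75 bins Tsc22d3 was at 191, 328 and 415 CPM in the sitagliptin-labelled and 70.2, 70.4 and 279 CPM in the PBS-labelled library, the last from 2 cells.

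**Figure D5:**
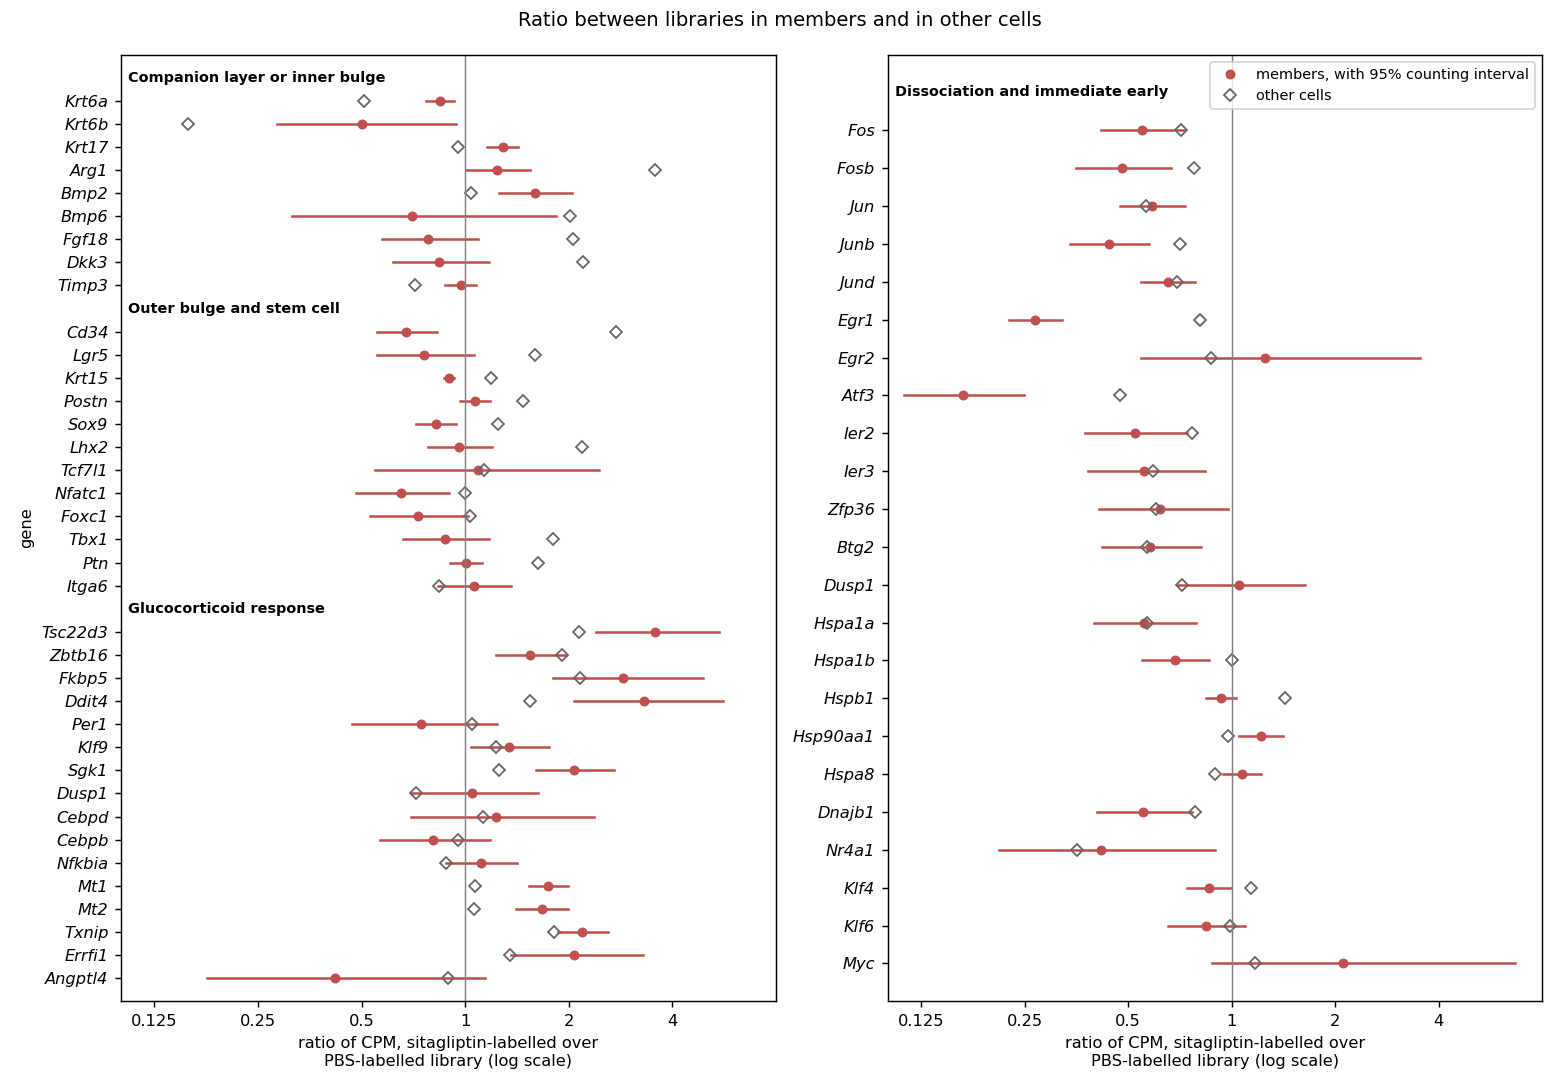
Ratio of CPM between the sitagliptin-labelled and the PBS-labelled library on a log scale, for all genes of 4 lists with at least 20 UMIs, without Krt75; filled circles with bars are members with their 95% counting intervals and open diamonds are other cells. Of 16 glucocorticoid response genes the bars of 10 lie above 1 and those of 6 include 1; of 23 dissociation and immediate early genes 16 lie below 1, 1 above, and 6 include 1.

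Immediate early and heat shock genes are known to be induced when tissue is dissociated. Among 23 measured, 14 passed 1.5-fold downwards, each with an interval that leaves out 1, and 1 upwards, where 11.5% of all genes passed downwards and 2.86% did so with such an interval. The list had a median of -0.77 in members and -0.38 in other cells. The heat shock genes Hsp90aa1, at 747 and 614 CPM, and Hspa8, at 865 and 810 CPM, were not lower. Egr1, an early growth response factor, was at 145 and 541 CPM, lower by 3.73-fold (3.12 to 4.46), with 69 of its 177 PBS-labelled UMIs in 1 cell. In members with under 5 Krt75 UMIs per 10000 it was at 179 and 1046 CPM, and in those from 5 to under 20 at 150 and 147 CPM. With at least 5 Krt75 UMIs per 10000 the median of the list turned, to 0.15. Atf3, a stress-induced factor, was at 22.3 and 134 CPM, with 19 of 44 PBS-labelled UMIs in 1 cell.

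Interferon response genes had a median of -0.74, against -0.25 in other cells, and 5 of 10 were at least 1.5-fold lower and 1 higher, where 11.5% and 19.3% of all genes were. The immunoproteasome subunit genes Psmb9 and Psmb10 were lower by 2.33- and 4.47-fold, with 10 of 17 PBS-labelled UMIs of each in a single cell. Without the member with most UMIs of each gene the ratio of Psmb9 was 0.880 and the list median -0.092. The list median turned to 0.52 with members thinned to 1000 UMIs and to 2.76 with at most 5% mitochondrial UMIs. Ifi27l2a, an interferon-induced gene, was at 15 and 79.5 CPM, with 15 of 26 PBS-labelled UMIs in a single cell. Antigen presentation genes of dendritic cells moved with it: Cd74 was at 15.6 and 116 CPM, with 30 of 38 PBS-labelled UMIs in a single cell. Their part in the interferon values was not tested.

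Of the genes named by size, those higher in the sitagliptin-labelled members and not yet described began with Lce1m and Crct1, cornified envelope genes, at ratios of 28.4 (5.05 to 1126) and 9.46 (3.20 to 46.2). They rest on few cells, with 120 and 112 of their 261 sitagliptin-labelled UMIs each in a single cell and 1 and 3 PBS-labelled UMIs. Without cells over 1% Krt1 and Krt10 their ratios were 1.66 and 1.98. Glul, the glutamine synthetase gene, was at 104 and 21.4 CPM (4.88, 2.34 to 12.2) and was detected in 142 of 285 and 6 of 21 members, with 16.7% of its 3′ end words in other genes.

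Ptgds, the lipocalin-type prostaglandin D synthase, was at 68.8 and 24.5 CPM (2.81, 1.4 to 6.61) in members and at 2.09 and 3.04 CPM in other cells. It was thus 32.9- and 8.03-fold higher in members than in all those cells together. The nearest groups stood closer to members in the PBS-labelled library. Cd34 cells had 1.59 CPM of Ptgds in the sitagliptin-labelled and 11.2 CPM in the PBS-labelled library, and Lgr5 cells 5.43 and 14.7 CPM. The PBS-labelled members had 8 Ptgds UMIs. In the sitagliptin-labelled library Ptgds stood at 24.4, 89.4 and 138 CPM along the Krt75 bins. Yme1l1, a mitochondrial protease, was higher by 2.90-fold, Dpm2, a subunit of dolichol-phosphate mannose synthase, by 2.86-fold, Mgll, which splits monoacylglycerols, by 2.77-fold and the splicing factor gene Snrpa, with 25.9% of its words shared, by 2.79-fold. Each of these 4 rests on 6 to 8 UMIs in PBS-labelled members. Restricted to at most 5% mitochondrial UMIs, where 1 PBS-labelled member is left, Dpm2, Snrpa and Mgll turned.

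Of the lower genes, Tchh, the trichohyalin gene of the inner root sheath, was at 13.6 and 532 CPM, but 163 of 174 PBS-labelled UMIs were in 1 cell; without the member with most UMIs in each library the ratio was 0.358. Flg2, a filaggrin family gene, had 57 of 64 PBS-labelled UMIs in a single cell and turned to 2.75 without it, and Sertad1, with 11 of 17, turned to 1.13. Hoxb9, a homeobox gene, was spread over more cells: at 38.2 and 94.7 CPM it was lower by 2.48-fold (1.61 to 3.71) and was found in 87 of 285 and 12 of 21 members. Rbms3, an RNA-binding protein gene, was lower by 2.56-fold and found in 51 and 11 members. Cotl1, an actin-binding protein gene, was lower by 3.30-fold (1.84 to 5.66), and in other cells it was at 26.6 and 66.8 CPM. Fam171b, Aacs, the acetoacetyl-CoA synthetase gene, and Wfdc21 were lower by 3.40-, 2.63- and 2.39-fold, with 6 of 17, 6 of 18 and 16 of 33 PBS-labelled UMIs in a single cell.

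Dpp4, the gene of the enzyme that sitagliptin inhibits, was close to the detection limit. It had 19 UMIs in 18 sitagliptin-labelled members and 2 UMIs in 2 PBS-labelled members, or 6.32 and 6.11 CPM, a ratio of 1.03 (0.249 to 9.15). The other cells had 5.10 and 6.98 CPM. At this depth a change of the Dpp4 level in members was not detectable. Of its relatives, Dpp8 was at 62.5 and 45.8 CPM and Dpp9 at 28.3 and 18.3 CPM, both with intervals that include 1, and Fap was at 0 UMIs in members of both libraries.

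Wound and stress genes had a median of -0.24 over 13 measured genes in members, and of -0.33 in other cells. Of the 13, 2 were at least 1.5-fold higher and 5 lower, where 19.3% and 11.5% of all genes were. With an interval that leaves out 1, 0 were higher and 2 lower. Krt17, a keratin of follicle and wound edge, was at 1515 and 1180 CPM (1.29, 1.16 to 1.43), with 16.3% of its words shared with other genes. Hbegf, an EGF receptor ligand, was at 13.6 and 33.6 CPM from 41 and 11 UMIs. Cell cycle genes had a median of 0.28, against -0.26 in other cells, with 6 of 21 higher and 2 lower, beside the same shares of all genes. Only 2 of the higher and 0 of the lower had an interval that leaves out 1. Top2a was higher, at 131 and 64.2 CPM (2.04, 1.31 to 3.33), with 393 and 21 UMIs, and Mki67 was at 104 and 67.2 CPM (1.55, 1.0 to 2.51). Both were still under the levels of other cells in the same library.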

How the data were processed

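Single-cell 10x Chromium libraries of polyadenylated RNA were analysed from deposited raw counts (UMIs by gene and barcode); Cell Ranger 3.1.0 and mm10 are named in the submitters' processing notes. Each file holds 31053 genes. Groups follow the treatment labels, with 1 library each. Members, gene lists and settings were chosen with earlier results of these data known. UMIs were summed over members and scaled to CPM, and ratios have exact conditional binomial 95% intervals. Shares have Clopper-Pearson intervals. Intervals cover counting error only and no variation between animals. Levels compare a gene between cells, not genes with each other.

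Between libraries, the 12 largest ratios in either direction were named, among genes past 1.5-fold whose interval leaves out 1, with a minimum of 50 CPM in 1 library and of 20 UMIs summed. Genes of dissociation, antigen receptors, ribosomes, mitochondria and haemoglobin, Xist, Tsix and Y-linked genes, predicted genes and Krt75 could not be named, nor could those over 10 times higher in cells left out by the collagen or C1q limits (12 of those past 2-fold). Against other cells, 15 were named by the smaller ratio; genes of the lists could be named besides, and others in the text were chosen after their values were seen. Of the genes the rule names, 2 are not reported here. List medians use a pseudocount of 1 CPM. The ratios and intervals between libraries were tested on simulated data. GENCODE vM21 held 31011 of 31053 identifiers (99.9%); 2 list symbols were not matched. Thinning used seed 1, and 31-base words at 3′ ends were compared between genes. Python 3.11.15, numpy 2.4.6, scipy 1.17.1, pandas 2.3.3, matplotlib 3.10.9, R 4.3.3 and edgeR 4.0.16 (TMM factors only) were used. Alternatives were other limits on cells and genes, thinning, scalings, and leaving out cells.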

Additional observations from a re-analysis of the deposited data

Results flagged for a closer look

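Barcodes over the mitochondrial limit of 10% were used in no comparison. Of 3656 such barcodes in the sitagliptin-labelled library 68 had at least 2 Krt75 UMIs, or 1.86% (1.45 to 2.35, exact Clopper-Pearson interval), and of 3251 in the PBS-labelled library 20 had them, or 0.615% (0.376 to 0.949). This is Krt75 signal in data outside the comparisons, with a higher share in the sitagliptin-labelled library. Members among retained cells had the same order, with 1.55% (1.38 to 1.74) and 0.354% (0.219 to 0.541). Whether the barcodes over the limit are damaged members was not tested.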

How the results depend on the processing

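No paired analysis was possible because each treatment has 1 library and the labels carry no replicate numbers. The ratio of member shares, 4.38, was 3.15 to 6.48 over 9 settings and 27.4 with at most 5% mitochondrial UMIs, where 1 PBS-labelled member is left. The number of genes at least 2-fold apart between libraries in members, 108, was 221 with at least 5 Krt75 UMIs per 10000, 2398 with at most 5% mitochondrial UMIs, 328 without the 8% of cells with most UMIs, 249 with Krt1 and Krt10 under 1% of UMIs, 713 with members thinned to 1000 UMIs, 266 by the mean CPM of each member, 195 with a total that leaves out haemoglobin, ribosomal and mitochondrial genes, and 539 at a minimum of 20 CPM. Higher genes were 63.0% of those past 2-fold, but 42.5% by the mean CPM, 43.1% with that reduced total and 96.7% without the member with most UMIs of each gene. The median log2 ratio of all genes, 0.055, was 1.74 with at most 5% mitochondrial UMIs and 0.30 without the member with most UMIs of each gene, a setting chosen after seeing the data, as were the removal of members with fibroblast or macrophage transcripts and the requirement of companion genes. The number of genes at least 2-fold higher in members than in other cells, 171, was 135 to 240 over 5 settings.

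Some values turned. The ratio of Flg2 was 1.23 with at least 5 Krt75 UMIs per 10000, 2.33 without the cells with most UMIs, 1.4 with Krt1 and Krt10 under 1%, 1.18 thinned and 2.75 without its top member. That of Sertad1 was 1.97 with at least 5 Krt75 UMIs per 10000 and 1.13 without its top member. With at most 5% mitochondrial UMIs the ratios of Dpm2, Snrpa and Mgll were 0.778, 0.532 and 0.556, and the medians of the hair shaft, fibroblast and melanocyte lists 5.15, 7.99 and 5.93. In the comparison as given these 3 lists had only 2, 5 and 1 genes with at least 20 UMIs, the last being Mitf. Without the cells with most UMIs the fibroblast and melanocyte medians were 0.17 and 0.061, and thinned the hair shaft median was 0.48. The dissociation median was 0.15 with at least 5 Krt75 UMIs per 10000. The cause of these turns was not tested beyond the cell counts given. Of 309 values of 24 named genes under the alternatives, 270 kept their direction and size within the limits used, 29 moved and 10 turned. Of 387 list medians, 66, in 19 of 26 lists, had another sign than in the comparison as given, among them those of the companion list (up to 7.64), the outer bulge list (up to 6.98) and the BMP list (up to 5.87), each with at most 5% mitochondrial UMIs; the 7 printed above are those where the interval of the median as given, by the order of the list's genes, left out 0. With 21 PBS-labelled members, genes of low level had wide intervals, and a difference between libraries cannot be told apart from one between animals, preparations or days.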

Other observations

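Gene lists not described so far gave the following values between libraries in members. The upper follicle list had a median log2 ratio of 0.45 over 9 genes, with 4 at least 1.5-fold higher and 0 lower, where 19.3% and 11.5% of all genes were, against a median of -0.065 in other cells. Its keratin Krt79 was at 682 CPM in sitagliptin-labelled and 287 CPM in PBS-labelled members, a ratio of 2.38 (1.93 to 2.95), with 54 of 94 PBS-labelled UMIs in a single cell. Desmosome and adherens genes had a median of 0.031 over 13, Notch genes of -0.018 over 10 and glycolysis genes of 0.046 over 14, each with 1 gene higher and 1 lower. The fibroblast list had 258 CPM summed in sitagliptin-labelled and 746 CPM in PBS-labelled members, of which Sparc alone held 245 and 315 CPM. Cd34 cells had Sparc too, at 173 and 157 CPM. The list of Langerhans and dendritic cells had 40.6 and 202 CPM. The medians of the fibroblast and the Langerhans list were -4.17 and -1.82, and -0.81 and -0.76 without the PBS-labelled member rich in fibroblast transcripts.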
